A study of Caenorhabditis elegans with 2 samples.

Results

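Small nucleolar RNA (snoRNA) genes of Caenorhabditis elegans that lie near a region enriched with the tagged nuclear hormone receptor NHR-12 are described here, with the coding genes whose introns hold them. A gene was taken when its start window, which reaches from 1000 bp ahead of the annotated start to 200 bp past it, held the summit of a candidate region called on the pooled replicates. This held for 203 of the 346 annotated snoRNA genes (58.7%), against 14976 of 46890 nuclear genes of all kinds (31.9%). It also held for 363 of 612 tRNA, 58 of 129 snRNA, 137 of 261 microRNA and 3315 of 15363 piRNA genes. A share as large as that of snoRNA genes was thus also seen at tRNA genes. Of the 203, 112 lay inside introns of protein-coding genes and 72 overlapped no coding gene. The other 19 overlapped a coding gene without lying wholly in an intron of it.

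The regions came from ChIP-seq, the sequencing of DNA that is immunoprecipitated with a protein, here NHR-12 fused to eGFP. Whole embryos of mixed stage and mixed sex were used. The strain was OP318, genotype unc-119(ed3) III; wgIs318, where wgIs318 is the insertion that carries the tagged receptor. What drives the tagged protein is not given in the sources used here. Per the labels there was 1 group with 2 biological replicates and no second condition, and what was separate about the replicates is not stated. No test over samples is therefore possible, and counts and medians are set beside the same over all genes or regions. The signal of a region is the authors' value against a control on a scale that is not stated, and read depth per library is unknown. Values of different lists are given side by side and not compared in size.

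SnoRNAs guide chemical modification of ribosomal and spliceosomal RNAs in the nucleolus. Box C/D snoRNAs direct ribose methylation and box H/ACA snoRNAs direct the conversion of uridine to pseudouridine. Many animal snoRNAs are cut out of the spliced introns of a host gene and so depend on the host's promoter, while others are transcribed from promoters of their own. Genes transcribed by RNA polymerase III, such as tRNA genes, carry internal promoter elements called the A box and the B box, which bind the factor TFIIIC. In budding yeast, polymerase III transcribes the snoRNA gene SNR52 from such boxes that lie ahead of the mature RNA.

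Letters of both boxes stood directly upstream of a subset of these genes, on the strand of the gene. The sequences below, from the RefSeq copy of WBcel235 (the assembly also named ce11), run from 110 bases before the annotated start to the tenth base of the gene. They were chosen after their values were seen, to show the boxes at genes with and without a summit close by. The capitals mark the letters matched to the A box, whose core is TGGCNNAGT, and then those matched to the B box, whose core is GTTCGANNC. In T24H7.6, Y43F8C.22 and Y59E1B.14 both boxes match every fixed letter of the consensus, and the other marked sequences hold up to 3 mismatches in all. The first 9 belong to genes with a thresholded peak, the next 2 to genes with a candidate below the threshold, and C06A1.9 is a gene with a peak and no such pair.
T03F7.8, chrV:11314148-11314267, forward strand: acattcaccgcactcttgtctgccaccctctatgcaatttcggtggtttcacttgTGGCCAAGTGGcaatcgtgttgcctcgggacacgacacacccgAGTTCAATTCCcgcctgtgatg
F55A11.10, chrV:11782882-11783001, forward strand: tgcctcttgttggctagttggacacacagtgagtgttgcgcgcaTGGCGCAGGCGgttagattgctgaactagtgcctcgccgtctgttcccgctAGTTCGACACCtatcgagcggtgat
C51F7.3, chrV:12303598-12303717, forward strand: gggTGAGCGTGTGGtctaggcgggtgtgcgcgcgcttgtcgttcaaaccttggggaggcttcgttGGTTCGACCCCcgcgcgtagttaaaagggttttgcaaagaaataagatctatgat
C04G6.12, chrII:5105222-5105341, reverse strand: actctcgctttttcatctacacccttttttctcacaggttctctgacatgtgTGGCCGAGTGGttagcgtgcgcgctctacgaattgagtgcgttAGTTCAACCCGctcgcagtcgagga
T06C12.16, chrV:15873917-15874036, reverse strand: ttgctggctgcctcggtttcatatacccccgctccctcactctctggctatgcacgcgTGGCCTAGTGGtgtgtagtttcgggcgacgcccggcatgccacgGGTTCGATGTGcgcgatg
W03C9.9, chrII:11960788-11960907, forward strand: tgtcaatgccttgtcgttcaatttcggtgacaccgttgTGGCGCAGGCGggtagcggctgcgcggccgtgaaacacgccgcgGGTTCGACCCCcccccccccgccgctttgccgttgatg
Y43F8C.22, chrV:19643178-19643297, reverse strand: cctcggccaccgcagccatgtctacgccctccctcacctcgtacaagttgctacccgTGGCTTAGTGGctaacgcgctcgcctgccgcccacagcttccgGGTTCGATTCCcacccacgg
Y38F2AR.14, chrIV:2408626-2408745, reverse strand: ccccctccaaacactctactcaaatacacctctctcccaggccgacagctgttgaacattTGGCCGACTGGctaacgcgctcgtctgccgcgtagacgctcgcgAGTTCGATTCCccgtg
Y53F4B.48, chrII:15166019-15166138, reverse strand: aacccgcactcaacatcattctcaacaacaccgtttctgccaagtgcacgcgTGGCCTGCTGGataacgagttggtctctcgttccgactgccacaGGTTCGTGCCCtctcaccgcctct
T24H7.6, chrII:6248607-6248726, forward strand: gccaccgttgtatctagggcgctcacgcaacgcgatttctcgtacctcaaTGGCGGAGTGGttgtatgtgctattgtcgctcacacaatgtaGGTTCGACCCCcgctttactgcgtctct
Y59E1B.14, chrX:1891399-1891518, forward strand: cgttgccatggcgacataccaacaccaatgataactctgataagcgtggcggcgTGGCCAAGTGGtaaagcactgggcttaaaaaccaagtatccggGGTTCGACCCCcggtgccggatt
C06A1.9, chrII:10563055-10563174, reverse strand: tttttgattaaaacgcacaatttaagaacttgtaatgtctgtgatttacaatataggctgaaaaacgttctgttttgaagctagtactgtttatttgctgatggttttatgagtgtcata

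Thresholded peaks are the regions of the list that the authors label optimal. A thresholded peak lay in the start window of 29 of the 203 genes (14.3%, exact Clopper-Pearson 95% interval 9.78 to 19.9, counting error only). Over all genes with a candidate the share was 2.49%. Without the snoRNA genes it was 2.33%, and over all annotated genes, with a candidate or not, 0.795%. It was 7.44% for 363 tRNA genes, 12.1% for 58 snRNA genes, 5.11% for 137 microRNA genes, 2.65% for 7138 protein-coding genes and 0.332% for 3315 piRNA genes. The 29 genes lay at 26 distinct peaks, 10.4% of the 249 thresholded peaks. With the candidates and the 249 best regions of replicate 2 alone, 23 of 188 snoRNA genes with a candidate had a best region. The share was 2.19% of all genes with a candidate in that list. With those of replicate 1 alone the values were 29 of 192 and 2.34%. With the stronger of the peaks, those above their median signal, 19 of the 203 had one against 1.34%. In a window of 500 bp upstream and 100 bp downstream, 22 of 143 with a candidate there had a peak against 3.19%. The largest signal in the window had a median of 15.2 over the 203 genes, with quartiles of 10.8 and 22.2, against a median of 10.9 over all 14976 genes. These values cover only genes with a candidate, and the other 143 snoRNA genes had no pooled candidate in the window.

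The intronic and intergenic classes held shares of peaks whose intervals overlapped. A peak lay at 17 of the 112 intronic genes (15.2%, 9.098 to 23.2) and at 9 of the 72 intergenic genes (12.5%, 5.88 to 22.4). The 17 lay at 15 distinct peaks and the 9 at 9. The intervals treat genes as independent, which genes that share a peak are not. The class medians of the signal were 16.9 and 15.2, and their ranges overlapped almost wholly, 7.81 to 60.05 and 7.78 to 52.3. Genes that overlapped a coding gene otherwise had a median of 10.9 and 3 peaks. Among intronic genes, 14 of 97 on the strand of the host had a peak and 3 of 15 on the opposite strand. On chromosome X, 12 of 33 snoRNA genes had a candidate (36.4%) against 191 of 313 on the autosomes (61.02%). For protein-coding genes these shares were 36.5% on X and 35.6% on the autosomes.

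**Figure D1:**
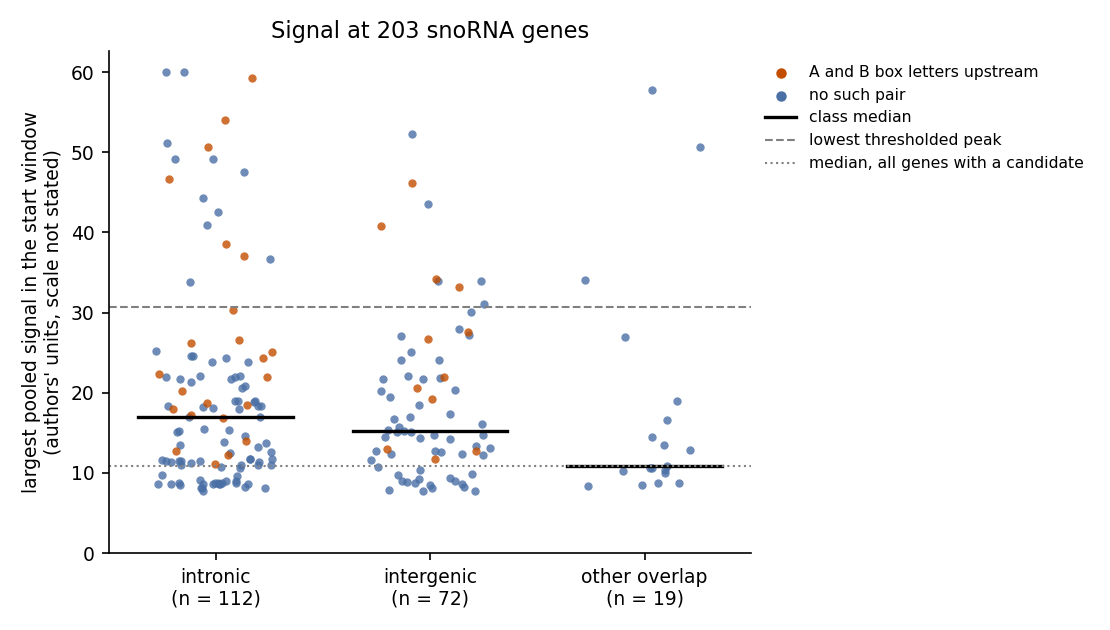
Largest pooled signal in the start window of each of the 203 snoRNA genes (vertical axis, the authors' units), by class; each point is a gene, orange where A and B box letters lie upstream. Class medians (black bars) are 16.9, 15.2 and 10.9, the dashed line is the lowest thresholded peak (30.7) and the dotted line the median of all genes with a candidate (10.9).

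The position of the summit divided the 29 genes with a peak into separate sets. In 19 the summit lay within 100 bp of the snoRNA start, in 10 it lay more than 200 bp upstream, and none lay between. Over the 203 genes, 83 (40.9%) had their strongest summit within 100 bp of the start, against 20.5% of all genes with a candidate, 49% of tRNA genes, 36.2% of snRNA genes and 19.3% of protein-coding genes. Within 50 bp of the gene body lay the strongest summit of 66 snoRNA genes (32.5%), against 21.6% of all genes, 46.6% of tRNA, 34.5% of snRNA, 21.9% of microRNA, 22.5% of protein-coding and 9.14% of piRNA genes. Summits sit at the centre of nearly every deposited region (28571 of 28574), and regions have a median width of 356 bp, so short distances are coarse. The distance of 100 bp was chosen after the values were seen.

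**Figure D2:**
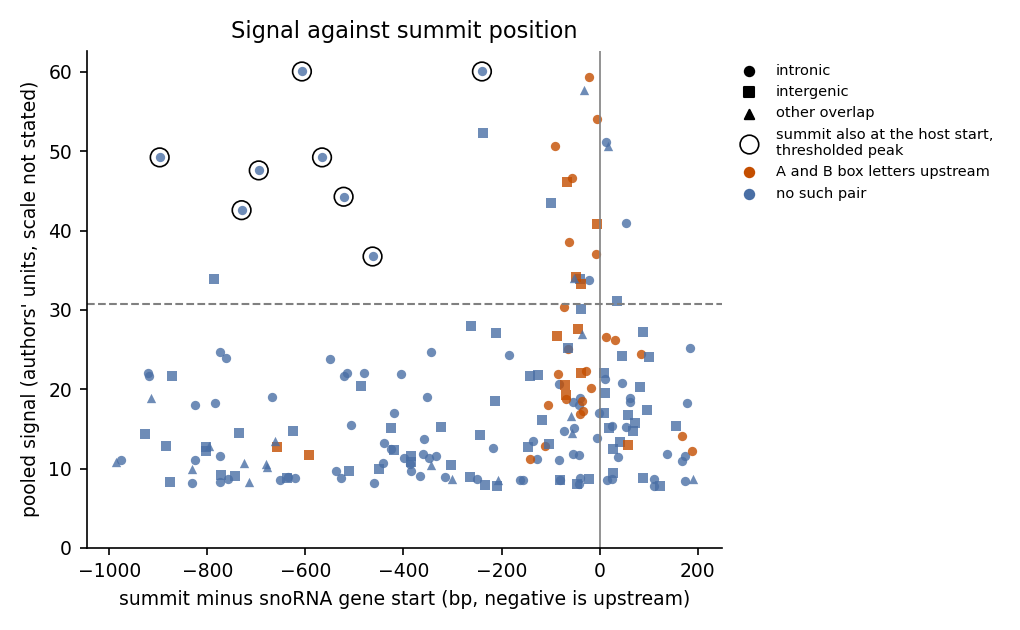
Pooled signal (vertical axis, the authors' units) against the distance of the strongest summit from the snoRNA start (horizontal axis, bp) for the 203 genes; symbols give the class, colour the A and B box letters, and circles the genes whose thresholded peak is also in the start window of the host. Above the dashed line (30.7), 19 genes sit within 100 bp of the start and 10 lie more than 200 bp upstream.

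The set with the peak at the snoRNA start held 9 intronic, 7 intergenic and 3 otherwise overlapping genes, with signals from 31.1 to 59.3. The summit lay upstream of the start in 15 of the 19 and inside the gene in 4. No protein-coding start lay in reach of the summit for 12 of them. The strongest was T03F7.8 (chromosome V, 11314258 to 11314332), which lies in an intron of the cuticlin-like gene cutl-18 on the opposite strand. Its signal was 59.3 in the pooled list, 34.9 in replicate 1 (rank 31 of 30000) and 23.6 in replicate 2 (rank 61). The summit was 21 bp upstream of the snoRNA start, between the A box and the B box printed above, and 2664 bp inside the host.

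T02E1.9 (chromosome I, 57.7 pooled, 33.2 in replicate 1, 23.97 in replicate 2) overlaps spe-12 and had its summit 31 bp upstream. F55A11.10 (chromosome V, 11782992 to 11783082) had 54.1 pooled, 27.8 in replicate 1 and 26.4 in replicate 2. Its summit was 5 bp upstream, at the end of the B box, and 6149 bp inside its host F55A11.6, while another coding gene, F55A11.11, starts 162 bp away. All 3 ranked among the 249 best regions of each replicate.

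ZK994.7, in an intron of the peroxidasin gene pxn-1, had its summit 13 bp inside the snoRNA gene and within reach of a tRNA start, with 51.2 pooled, 22.9 in replicate 1 and 28.7 in replicate 2. The pair of boxes was not found upstream of it. C51F7.3, in an intron of frm-7, a FERM domain gene, shared its peak with the neighbouring snoRNA gene C51F7.4 (50.6 pooled, 35.99 in replicate 1, 13.2 in replicate 2). The summit was 92 bp upstream of C51F7.3 and 17 bp inside C51F7.4, and the boxes printed for C51F7.3 lie inside the annotated body of C51F7.4. C04G6.12, in the mitogen-activated protein kinase gene mpk-2 on the opposite strand, had 46.7 pooled, 27.4 in replicate 1 and 17.0 in replicate 2, with the summit at its A box, 57 bp upstream.

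Lower intronic peaks of this kind lay in 4 further hosts. F38E11.14, in the cyclic nucleotide-gated channel gene cng-3, had 40.96 pooled, 27.6 in replicate 1 and 13.7 in replicate 2, and its summit also lay 190 bp upstream of wrt-3. Y43F8C.22, in Y43F8C.7, had 38.5, 26.5 and 11.04 in that order, and Y38F2AR.14, in Y38F2AR.12, 37.02, 27.5 and 9.92. Both ranked within the best regions of replicate 1 (86 and 73) and far lower in replicate 2 (1359 and 2230). T04A8.17, in ppat-1 on the opposite strand, had 33.8, 16.1 and 16.6. Each of these 9 intronic genes lay in a host of its own, and none of the 9 hosts had a thresholded peak at its own start. In 3 hosts a candidate lay there, with signals of 12.4 to 14.7, and in 6 there was none. Of all protein-coding genes, 35.7% had a candidate at the start, and 2.65% of those with a candidate had a peak. The counts for these 9 hosts therefore do not set them apart from other coding genes.

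Among intergenic genes, T06C12.16 (chromosome V, 15873855 to 15873926) had 46.1 pooled, 32.8 in replicate 1 and 11.33 in replicate 2, with the summit 66 bp upstream. W03C9.9 (chromosome II, 11960898 to 11960959), whose sequence holds box C/D letters, had 40.8 pooled, 26.1 in replicate 1 and 23.2 in replicate 2, 5 bp upstream. It ranked 91 and 64, and T06C12.16 ranked 44 and 1215, so of the pair only W03C9.9 was among the 249 best regions of each replicate. T19B4.8 (34.1 pooled, 21.1 in replicate 1, 10.3 in replicate 2) and C46C2.8 (33.9, 21.9 and 11.38 in that order) had summits 49 and 41 bp upstream. Y53F4B.48 (33.2, 22.6 and 12.9) had its summit 39 bp upstream and H09I01.2 (31.1, 14.2 and 17.5) 35 bp inside the gene. Replicate 2 was the lower list for the first 3 by rank, and replicate 1 for H09I01.2 (896 against 177). Y53F4B.47 (43.5, 24.9 and 15.2) had its summit 99 bp upstream, at a point that also lay 122 bp upstream of the coding gene cmtr-1. F39B2.14, which overlaps tmem-107, had 34.1, 16.01 and 18.95, and its summit 53 bp upstream was also 8 bp inside tmem-107.

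The set with distant summits was made up mostly of snoRNA genes whose peak also lay in the start window of the host. This held for 8 of its 10 genes, at 6 peaks and 6 hosts. F54E7.10 and F54E7.11 lie in introns of rps-12, a small-subunit ribosomal protein gene, and shared a peak 160 bp upstream of it. That peak had 60.05 pooled, 36.2 in replicate 1 (rank 21) and 19.9 in replicate 2 (rank 112), and it lay nearer to ska-3 (133 bp). It was 240 and 607 bp upstream of the snoRNA genes themselves.

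K11H12.12 and K11H12.13 lie in rpl-15, a large-subunit ribosomal protein gene. Their shared peak, 351 bp upstream of the host, had 49.2 pooled, 24.98 in replicate 1 and 19.8 in replicate 2. F54C9.12 lies in iff-2, which encodes translation factor eIF5A (47.6 pooled, 34.6 and 13.6 in replicates 1 and 2, 100 bp upstream of the host). C06A1.9 lies in cdc-48.1, an AAA ATPase gene (44.3 pooled, 24.5 and 16.5, 179 bp upstream of the host). B0393.10 lies in the F-box gene fbxl-2 (42.6 pooled, 24.95 and 15.3, 43 bp upstream), and Y49E10.36 in the histone H3.3 gene his-72 (36.7 pooled, 19.4 in both replicates, 43 bp inside the host). None of the 8 had the pair of boxes upstream, and the sequence of 1 of them, C06A1.9, is printed above. The pair was found at only 10.7% of all snoRNA genes, so its absence at 8 genes does not set them apart. For these genes the window at the snoRNA start reaches the host's start, so the same summit counts for both and the data cannot tell them apart. The summits at rps-12, rpl-15 and iff-2 each lay in the start windows of 2 coding genes, the host among them.

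The other 2 distant peaks were intergenic. W06H8.17 had 52.3 pooled, 26.9 in replicate 1 and 25.3 in replicate 2, 238 bp upstream of the snoRNA gene and 778 bp upstream of the coding gene W06H8.6. T27A8.8 on chromosome X had 33.9 pooled and 27.7 in replicate 1 (rank 71) but 5.97 in replicate 2 (rank 13504), 787 bp upstream. Replicate 2 ranked no other snoRNA gene with a peak so low.

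Hosts were compared with their snoRNA genes over all introns. The 178 intronic snoRNA genes lie in 157 coding hosts, 140 of which hold a single snoRNA gene. A candidate lay at the start of 76 of these hosts (48.4%, against 35.7% of all protein-coding genes), and a peak at 7 (9.21% of those with a candidate, against 2.65%). The 7 were the 6 hosts above and wwp-1 (52.4), whose snoRNA gene Y65B4BR.12 had a separate summit of 19.02. By name (rpl or rps with a number), 13 of the hosts are ribosomal protein genes, with 19 snoRNA genes. Of these 13, 12 had a candidate at the start, and rps-12 and rpl-15 a peak. Ribosomal protein genes with other names were not counted.

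The strongest summit of an intronic snoRNA gene was in the host's start window for 33 of 112 genes, 8 of them at a peak. Of the remaining 79 genes, 42 had a host with no candidate at its own start. Of the other 37 genes, some of which share a host, 21 had a larger signal than their host. The strongest summit lay in the very intron that holds the snoRNA gene for 58 of 112, although the median intron is only 298.5 bp long and so is shorter than a typical region.

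**Figure D3:**
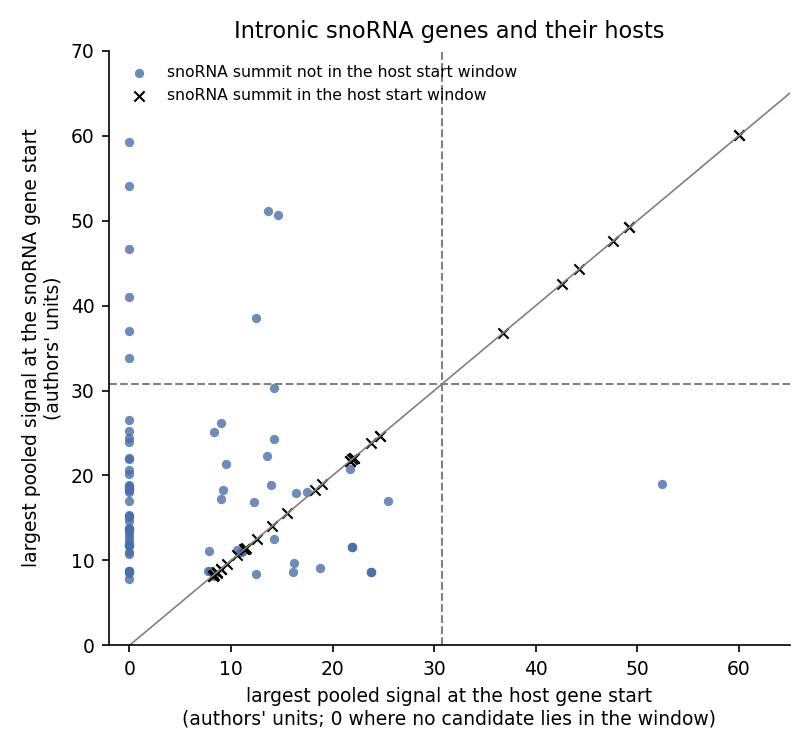
Largest pooled signal at the start of the 112 intronic snoRNA genes (vertical axis) against that at the start of the host (horizontal axis, 0 where the host has no candidate), both in the authors' units. Crosses mark genes whose strongest summit is also in the host's window; dashed lines are the lowest thresholded peak (30.7), and the 9 filled points above it lie at hosts with 14.7 or less.

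The pair of boxes was then sought at all snoRNA genes. The search took the strand of the gene from 150 bp before to 20 bp after the start, and allowed 3 mismatches over the 18 fixed letters of both boxes, with 25 to 80 bp from the first letter of one to that of the other. The consensus letters are textbook ones, but the window, spacing and mismatches were set after the sequences of the 29 genes with a peak were read. The pair was found at 37 of 346 snoRNA genes (10.7%), against 0.156% of all gene starts and 0.0501% of protein-coding starts. On the opposite strand of the same windows it was found at 1 snoRNA gene. At tRNA starts, where the B box lies farther inside the gene than this window reaches, it was 0.163%, and at microRNA starts 1.92%. None of the 37 pairs lay in an annotated tRNA gene.

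The boxes kept a narrow position. The A box began 50 to 75 bp upstream of the start in 36 of 37 genes, with a median of 58 bp, and the B box 6 to 28 bp upstream in 36, with a median of 15 bp. C51F7.3 was the exception in both counts. The letters GTTCGA of the B box were intact in 20 of the 37, and both boxes were free of mismatches in 3 (Y43F8C.22, T24H7.6 and Y59E1B.14). A match is a description of the letters and was not tested as a site of binding.

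Of the 37 genes with the pair, 35 had a pooled candidate (94.6%), against 168 of the 309 without it (54.4%). A peak lay at 10 of the 35 (28.6%, 14.6 to 46.3) and at 19 of the 168 (11.31%, 6.95 to 17.1), beside 2.49% of all genes with a candidate. All 10 were in the set with the summit at the snoRNA start and none in the distant set. The median signal was 22.3 with the pair and 14.1 without. Because the search was shaped by the genes with a peak, the same was taken over genes below the threshold: 25 with the pair had a median of 19.3 and 149 without it 12.7. Of these, the strongest summit lay within 100 bp of the start in 18 of 25 and in 46 of 149.

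The pair was seen in both classes. With it, 23 intronic genes had a median signal of 22.3 and 6 peaks, and 12 intergenic genes had 24.3 and 4 peaks. Without it, 89 intronic genes had a median of 13.7 and 11 peaks, and 60 intergenic genes had 14.7 and 5 peaks, so most peaks of either class were at genes without the pair. Of the 23 intronic genes with the pair, 20 had the strongest summit in the same intron and 1 in the host's start window. Below the threshold, T24H7.6 (26.6 pooled, intron of T24H7.2) had its summit 13 bp inside the gene, and it ranked 4266 in replicate 1 and 3034 in replicate 2. Y59E1B.14, with intact boxes on chromosome X, had a candidate of 12.7 with its summit 657 bp upstream and no overlapping region in replicate 1. The pair without a candidate was found at C53B7.8 and K11C4.6.

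**Figure D4:**
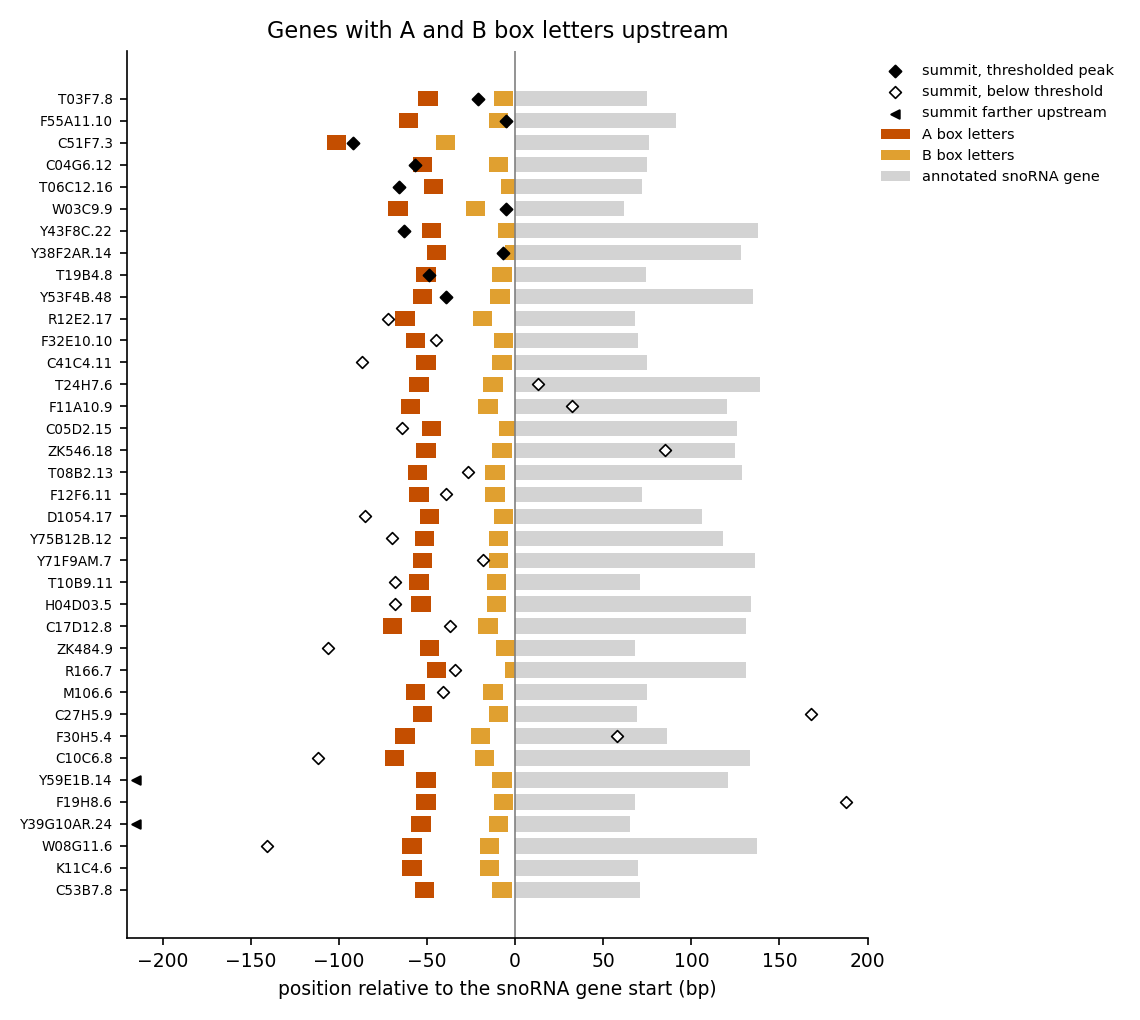
Position of the A box (dark orange), B box (light orange) and strongest summit (diamonds) relative to the start of the 37 snoRNA genes with the pair, in bp, ordered from the largest pooled signal at the top. Filled diamonds are the 10 genes with a thresholded peak, all within 100 bp of the start; the bottom 2 genes have no candidate.

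Single motifs were counted within 100 bp of the summits, on both strands. The core of the B box, GTTCGANNC, was in 5 of the 26 peak regions of snoRNA genes (19.2%), against 10% of all 249 thresholded peaks. It was in 19 of all 188 regions of snoRNA genes (10.1%), against 2.08% of all pooled candidates. The core of the A box, TGGCNNAGT, was in 5 of 26 (19.2%), against 5.62% of the peaks, and in 16 of 188 (8.51%), against 2.06% of candidates. AGGTCA, the hexamer that many nuclear receptors bind, was in 1 of 26 (3.85%), against 5.22% of the peaks, and in 12 of 188 (6.38%), against 5.7% of candidates. TATAAA was in 4 of 26 (15.4%), against 10.8% of the peaks, and in 32 of 188 (17%), against 17.8% of candidates. CTGCGTCT was in 1 of 26 (3.85%), against 12.9% of the peaks, and in 7 of 188 (3.72%), against 2.39% of candidates. The pair of boxes, sought in the same windows, was in 10 of 26 (38.5%), against 33 of all 249 peaks (13.3%). It was in 29 of 188 (15.4%), against 0.966% of candidates. The 33 peaks include the 10. The spacing and mismatches of the pair were set after the sequences of these genes with a peak were read. The shares are therefore no independent support for the pair. The pair was not confined to the regions of snoRNA genes. How many of the 33 lay at tRNA genes, which carry both boxes, was not counted.

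Letters of the boxes in the RNA itself sorted few of the genes. The search for C/D letters (TGATGA in the first 20 bases, CTGA in the last 20) and for H/ACA letters (ACA in the last 8 bases, AGA or ANANNA between bases 40 and 90) left 249 of 346 genes unclassed. Of 9 genes with C/D letters and a candidate, F55A11.10, C51F7.3 and W03C9.9 had a peak. Of 60 with H/ACA letters, 10 had one. These include F54E7.10, F54E7.11, K11H12.12, K11H12.13, C06A1.9 and B0393.10, whose peaks also lay in the host's start window. The H/ACA letters are short and permissive, so these counts describe letters and not families.

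Values next to the threshold were close to each other. The lowest peaks among the genes were H09I01.2 (31.1), Y53F4B.48 (33.2) and T04A8.17 (33.8), and the highest candidates below it were R12E2.17 (30.3), F59C6.15 (30.1) and F37F2.4 (27.9). R12E2.17 lies in an intron of the proteasome subunit gene rpn-8, has the pair of boxes and had its summit 72 bp upstream. It ranked 213 in replicate 1 and 1256 in replicate 2. F59C6.15, intergenic, ranked 134 and 388, with its summit 39 bp upstream.

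Replicate 1 contributed more of the peaks than replicate 2. Of the 29 genes, 26 lay among the 249 best regions of replicate 1 (71.1% of all thresholded peaks did so) and 16 among those of replicate 2 (59.8%). Both lists held 13 (40.2% of all peaks), replicate 1 alone 13 and replicate 2 alone 3. The 3 were F39B2.14, T04A8.17 and H09I01.2. These counts are of genes, while the percentages are of peaks. The 29 genes lay at 26 distinct peaks, so a peak shared by 2 genes was counted more than once. Counts and percentages therefore compare only roughly. Of the 203 genes, the strongest region overlapped a candidate of both replicates in 111 (54.7%, against 32.9% of all pooled candidates), of replicate 1 alone in 47, of replicate 2 alone in 39 and of neither in 6. The 54.7% counts genes by the strongest region in the window, while the 32.9% counts every pooled region, weak ones included. The shares are therefore not like for like. Pooled candidates draw on both replicates, so the overlap is no independent repeat.

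**Figure D5:**
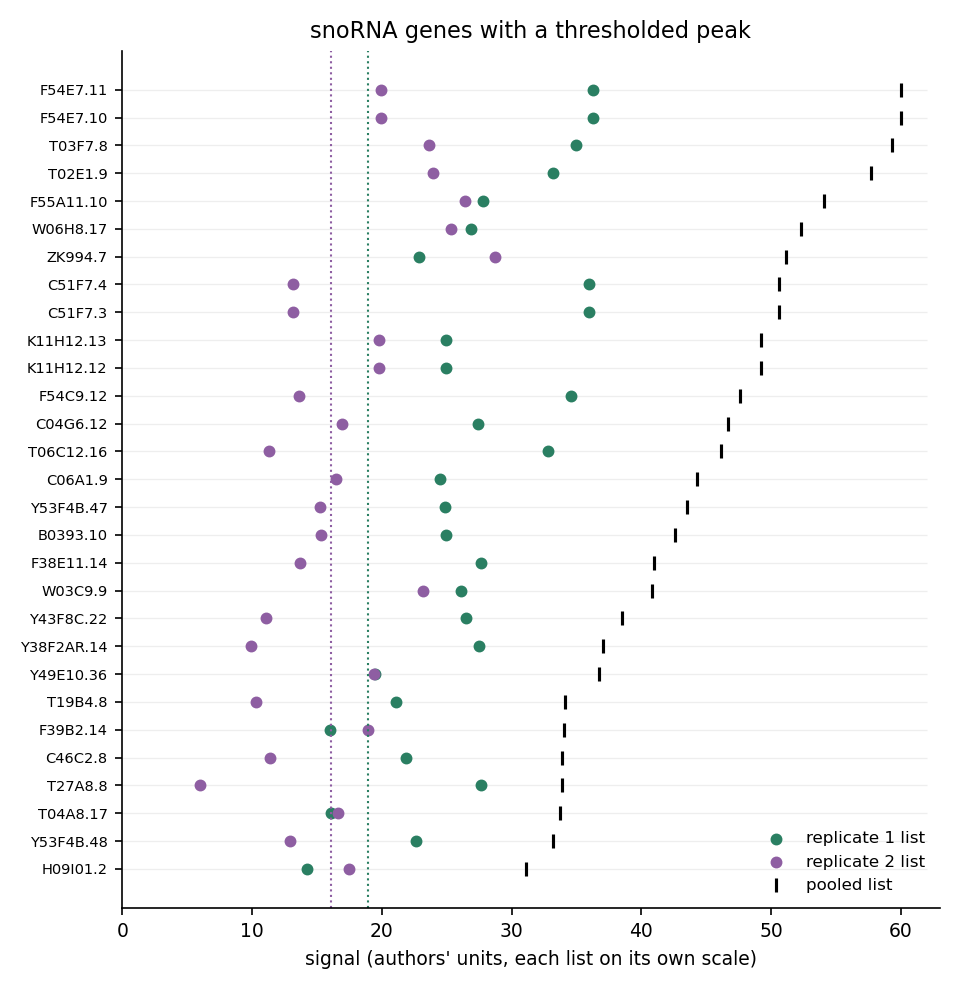
Signal of the 29 snoRNA genes with a thresholded peak (rows, ordered by pooled signal) in the pooled list and in the list of each replicate (horizontal axis, the authors' units, each list on its own scale). Dotted lines give the signal of region 249 in replicate 1 (18.9) and in replicate 2 (16.1); 13 genes lie above both.

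Genes for the proteins of the snoRNA particles had no peak, but they are too few for this to set them apart. Of 8 such genes, 5 had a candidate in the start window, with a median signal of 15.9, and 0 a thresholded peak (2.65% of protein-coding genes with a candidate have one). fib-1, which encodes the methyltransferase fibrillarin, had 25.3 pooled, 17.8 in replicate 1 (rank 322) and 18.3 in replicate 2 (rank 155). nol-56, a core protein of the C/D particle, had 21.9 pooled, 17.5 and 11.01. nola-3 and dkc-1, the latter encoding the pseudouridine synthase dyskerin of the H/ACA particle, had 15.9 and 10.8, and nol-58 had 14.5. snu-13, garr-1 and Y48A6B.3 had no pooled candidate.

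nol-56 is itself the host of 4 snoRNA genes, the largest number in 1 host. The strongest summit of K07C5.11 also lay in the start window of nol-56 (21.9), and K07C5.10, K07C5.12 and K07C5.18 shared a summit of 11.5 inside the gene. All 4 have H/ACA letters. In top-2, a topoisomerase gene with 3 snoRNA genes, the host start had 23.7 while K12D12.6, K12D12.7 and K12D12.8 shared a summit of 8.596.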

How the data were processed

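Per the labels, ChIP-seq of eGFP-tagged NHR-12 was run on 2 biological replicates of embryos. The authors deposited region lists on ce11: 249 thresholded peaks, 28574 candidates called on the pooled replicates and 30000 candidates per replicate. Each region carries a signal against the control and a −log10 q value (capped, and not used for ranking), both the authors'. Per the description files deposited with the lists, thresholding was by irreproducible discovery rate; aligner, caller and versions are not given in the sources used here. Lists on ce10 were not used. Depth is unknown, so no precision can be given for a signal, and intervals of shares cover counting error only.

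Genes, introns and biotypes came from Ensembl release 115 (WBcel235, nuclear chromosomes) and sequence from RefSeq. A summit is the region start plus the deposited offset. A snoRNA gene was intronic when its body lay wholly in an intron of at least 1 coding transcript on either strand. A replicate's value is the largest signal among its regions that overlap the pooled region by at least 1 bp, and its best regions are the 249 with the largest signal. Motif searches covered both strands. At gene starts the pair of boxes was sought on the strand of the gene. No region behind the 29 genes had over 2.49% of its 36-base words elsewhere in the genome. Python 3.11.15, numpy 2.4.6, pandas 2.3.3 and scipy 1.17.1 were used, and the code was tested on simulated data.

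The genes, lists, motifs and alternatives were chosen with earlier results of these data known. Named genes were every snoRNA gene with a peak, its host, 3 genes on each side of the threshold and 8 genes of snoRNA particle proteins (fib-1, nol-56, nol-58, snu-13, dkc-1, garr-1, nola-3, Y48A6B.3); others were named after their values were seen. Alternatives were a narrower window, each replicate alone, the stronger of the peaks, 1 gene per peak, hosts on the same strand, more best regions, a stricter overlap, narrower motif windows and, added later, other mismatch limits and leaving out repeated sequence.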

Additional observations from a re-analysis of the deposited data

How the results depend on the processing

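Of 50 alternatives, 34 left a count within 1.5 times of its value or a median within 1 SD between the replicate lists, and 16 did not. The 29 genes with a peak became 19 with the peaks above their median signal alone, and the 9 intergenic ones became 4. With the window cut to 500 bp upstream and 100 bp downstream, intronic genes with a peak fell from 17 to 11 and those with the summit at the host start from 8 to 2, since the summit of the other 6 genes lay farther than that from the snoRNA start; the intergenic median was 17.1. With replicate 1 or replicate 2 left out, the medians ran from 7.96 to 10.4 for all genes. They ran from 8.29 to 10.8 for intronic and 7.75 to 10.05 for intergenic genes. These medians are counted among the 16, and the cause was not tested. Each list has its own scale, so they cannot show whether the pooled medians hold. With either replicate left out, genes with a peak ranged from 23 to 29, intronic ones from 15 to 17 and intergenic ones from 6 to 10. Those at the host start ranged from 6 to 8, genes with a candidate from 188 to 192 and summits near the gene body from 60 to 63. Over all genes with a candidate, 2.19% to 2.34% had such a peak. Within 50 bp of summits, AGGTCA was in 0 and GTTCGANNC in 3 of the 26 peak regions. The number of mismatches moved the counts of the pair: 2 allowed gave 22 genes with the pair and 6 with a peak, 4 allowed gave 57 and 14. No paired analysis was possible because there is only 1 group. Unknown depth limits every signal value.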
